A study of Rattus norvegicus with 90 samples.

Results

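The data are RNA levels in the liver of rat fetuses at gestation day (GD) 21. Fetuses whose mothers received 10 mg/kg/d of NBP2 are set against fetuses of mothers at 0 mg/kg/d. NBP2 stands for Nafion byproduct 2, a fluorinated ether sulfonic acid that arises when the polymer Nafion is made. The libraries were chosen by their titles and doses alone: 3 fetal GD21 libraries at 10 mg/kg/d and 3 at 0 mg/kg/d, 6 of the 90 libraries of the series. All 6 come from Sprague-Dawley rats, each from a different dam, and all belong to study block 144. Dams, about 90 days old when bought, were dosed by mouth from GD17 to GD21, and dams and fetuses were killed 2 to 4 h after the last dose. The titles and the treatment text give GD21, while the age entry gives GD20, and GD21 is used here. The labels do not say whether a library holds 1 fetus or several, nor the sex of the fetuses. Libraries are named below by dam: control dams 2129, 2130 and 2131, and treated dams 2138, 2139 and 2140.

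RNA was measured with TempO-Seq, in which pairs of short probes are ligated on their target RNA, amplified and counted by sequencing. Of the 20833 genes in the file, 10244 passed the filter on low counts and were tested. Levels are given as CPM, counts per 1000000 counts of a library after scaling for its composition. Probes differ between genes, so a level is compared only within a gene. The authors reduced the most abundant transcripts equally in all libraries. Replicates are separate dams.

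Peroxisome proliferator-activated receptor alpha (PPAR-alpha) is a nuclear receptor that binds fatty acids and switches on the genes that carry, activate and oxidise them. Fluorinated acids that resemble fatty acids are known to activate it in rodent liver. CAR and PXR are related receptors that respond to foreign chemicals and drive the Cyp2b and Cyp3a drug-metabolising enzymes. The fetal liver at this age also makes blood cells, so its RNA mixes hepatocytes with red cell precursors.

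The 6 livers carried the markers of fetal liver. Afp, the fetal plasma protein, stood at 25217, 24848 and 9327 CPM in the controls and 25726, 19251 and 19616 CPM in the treated livers. Alb, serum albumin, ran from 1539 to 4160 CPM in controls and from 3154 to 4172 CPM in treated livers. The groups overlapped for both. Control dam 2131 had the lowest Afp and Alb and the lowest haemoglobin share, 3.97% of its counts, where the other 5 libraries had 11% to 17.4%. Control dam 2129 had counts for 825 of 1258 olfactory, taste and vomeronasal receptor genes, against 25 to 61 in the other 5. Treated dam 2140 carried exocrine pancreas and gut markers at 186.8 CPM in sum, against 11.9 to 28.1 CPM in the others, led by Cpa1 at 92.5 CPM and Ctrb1 at 68.8 CPM. Total counts were 5864108 to 6998814 in controls and 3487653 to 5398582 in treated livers, so depth was lower in every treated library. Y-linked genes read 102 CPM in 1 control (dam 2129) and 112 CPM in 1 treated library (dam 2138), and at most 2.76 CPM in the other 4. The counts of called genes in the comparison of 10 with 0 mg/kg/d, the log2 differences of the genes named by rule and the medians of gene lists were recomputed without each of the 6 libraries in turn. In bulk tissue, fewer cells of a type and less RNA per cell cannot be told apart.

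No gene passed the threshold of an adjusted p of 0.05 at 10 mg/kg/d in edgeR's quasi-likelihood test, 0% of the 10244 tested in either direction. At an unadjusted p under 0.05 there were 388 genes, 232 higher and 156 lower in treated livers. DESeq2, run on the same libraries, called 11: 10 higher (0.0976% of genes tested) and 1 lower (0.00976%). The 10 higher were Acot1, Fabp1, Nfs1, Scd, Ifngr2, Slc25a1, Uso1, Cyp4a3, Cyp4a2 and Anapc5, and the lower was Fam149a. Fitted on the 6 libraries alone, edgeR called Fabp1 and Acot1 (adjusted p 0.0235 for each), and with no filter on low counts it called 54 genes. Of the genes that DESeq2 called, Acot1, Fabp1, Cyp4a2 and Cyp4a3 are PPAR-alpha targets, and Scd and Slc25a1 serve fatty acid synthesis. The median log2 fold change over all genes tested was -0.00. In 714 genes (6.97%) all 3 treated livers lay above all 3 controls, and in 647 (6.32%) all 3 lay below. Those shares are the background for the counts of gene groups that follow.

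The promoters of Fabp1, Acot1, Scd and Cyp4a3 are shown because these genes had among the smallest p-values and stand for fatty acid binding, release, desaturation and omega-oxidation. Each run is the 250 bases before the start of the gene, from RefSeq on the GRCr8 build, read 5′ to 3′ on the gene's strand. Capitals mark a match to the DR1 element, the direct repeat to which PPAR-alpha and its partner RXR are known to bind, searched on both strands as the letters AGGNCA, any base, and AGGNCA again. The positions are chr4:104749090-104749339 (plus strand) for Fabp1, chr6:109367024-109367273 (plus) for Acot1, chr1:253231732-253231981 (minus) for Scd and chr5:134352237-134352486 (minus) for Cyp4a3.
Fabp1: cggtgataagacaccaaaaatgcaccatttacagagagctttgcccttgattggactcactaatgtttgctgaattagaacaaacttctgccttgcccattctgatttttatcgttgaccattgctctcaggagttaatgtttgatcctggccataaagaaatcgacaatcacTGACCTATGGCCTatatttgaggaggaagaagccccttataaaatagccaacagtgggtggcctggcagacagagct
Acot1: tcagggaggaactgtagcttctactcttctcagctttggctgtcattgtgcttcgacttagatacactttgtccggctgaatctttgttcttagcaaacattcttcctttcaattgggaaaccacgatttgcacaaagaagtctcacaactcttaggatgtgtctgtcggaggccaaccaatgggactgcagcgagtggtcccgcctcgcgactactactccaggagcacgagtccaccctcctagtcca
Scd: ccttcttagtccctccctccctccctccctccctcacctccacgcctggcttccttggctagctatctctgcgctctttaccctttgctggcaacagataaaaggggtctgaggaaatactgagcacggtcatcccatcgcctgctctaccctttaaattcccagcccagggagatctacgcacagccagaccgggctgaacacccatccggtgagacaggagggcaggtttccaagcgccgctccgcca
Cyp4a3: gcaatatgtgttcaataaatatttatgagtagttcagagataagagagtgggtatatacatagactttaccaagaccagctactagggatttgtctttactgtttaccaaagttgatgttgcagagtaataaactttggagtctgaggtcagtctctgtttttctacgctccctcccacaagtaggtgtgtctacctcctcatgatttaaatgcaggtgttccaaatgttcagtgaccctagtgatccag
The match in Fabp1, TGACCTATGGCCT, covers bases 77 to 65 before the start and reads on the opposite strand. The same letters occur in 123 of 33469 RefSeq promoters of this length (0.368%). Of the 31 genes named by the rule used here, 24 had a promoter in the table and 1, Fabp1, held the element. Cyp4a1, Vnn1, Lpl, Cyp1a1 and Cyp7a1 were among those with none in the table.

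Some genes that bind and oxidise fatty acids had all treated livers above all controls, while most genes of mitochondrial and peroxisomal beta-oxidation overlapped. Fabp1 (rn6 chromosome 4, 99063181 to 99066955), the protein that carries fatty acids in hepatocytes, stood at 213.9, 273.4 and 343.1 CPM in controls and at 1648, 1268 and 1391 CPM in treated livers. The lowest treated liver was well above the highest control. Its mean went from 277 ± 64.7 to 1436 ± 194 CPM (SD, n = 3 each), a log2 difference of 2.37 ± 0.36 (SE). The 95% interval was 1.61 to 3.14 and the fold 5.19. The adjusted p was 0.0756 in edgeR and 5.28e-07 in DESeq2.

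Acot1 (chromosome 6, 107485249 to 107493799), a cytosolic enzyme that releases fatty acids from coenzyme A, had the highest fold of the named genes. It was at 2.29, 1.64 and 2.33 CPM in controls and at 28, 67.8 and 23.1 CPM in treated livers, with dam 2139 the highest. The log2 difference was 4.24 ± 0.68 (SE), 18.9-fold, with an adjusted p of 0.0765 in edgeR and 3.60e-07 in DESeq2. Without dam 2139 the log2 difference was 3.61. Its mitochondrial relative Acot2 read 6.39, 5.8 and 7.81 CPM in controls and 19.8, 19.1 and 23.7 CPM in treated livers, a log2 difference of 1.64 ± 0.53. The peroxisomal relative Acot4 differed by 1.92 ± 0.85, also with no overlap between groups.

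The Cyp4a enzymes start the breakdown of fatty acids from their far end, and 4 were tested. Cyp4a3 was at 29.5, 64.5 and 57 CPM in controls and at 175.7, 220.2 and 180 CPM in treated livers, a log2 difference of 1.93 ± 0.43 (adjusted p 0.554 in edgeR, 0.0208 in DESeq2). Cyp4a2 differed by 1.88 ± 0.42, with the same adjusted p-values. These are not independent readings: neither gene's counts were whole numbers in any of the 6 libraries, and in 5 of 6 Cyp4a2 was 0.607 of Cyp4a3, so reads were divided between the near copies. Cyp4a1, whose counts were whole, went from 5.41, 8.03 and 2.66 CPM to 11.8, 18.8 and 17.9 CPM, a log2 difference of 1.58 ± 0.76 with an interval of -0.05 to 3.20. Cyp4a8 had the opposite sign with overlap: 8.03, 14.1 and 2.33 CPM in controls and 4.9, 0 and 4.39 CPM in treated livers, a difference of -1.39 ± 1.11.

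In the peroxisome, Ehhadh, the bifunctional enzyme of beta-oxidation, was at 13.8, 16.6 and 8.14 CPM in controls and at 53.9, 45.2 and 35.7 CPM in treated livers. The log2 difference was 1.80 ± 0.52, with adjusted p-values of 1 in edgeR and 0.276 in DESeq2. Acaa1a, the thiolase of the same pathway, differed by 0.66 ± 0.31. Vnn1, a pantetheinase and PPAR-alpha target, ran from 34.6 to 84 CPM in controls and from 98.9 to 161.2 CPM in treated livers. None of these 3 genes overlapped between doses.

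Other targets of the same receptor did not separate. Pdk4, a kinase that spares glucose, read 3.44, 10.6 and 1.5 CPM in controls and 7.44, 6.12 and 8.2 CPM in treated livers, a log2 difference of 0.48 that was 1.54 without control dam 2130. Cpt1a, which admits fatty acids to mitochondria, differed by 0.77 ± 0.54 with an interval of -0.38 to 1.92. Lpl, which releases fatty acids from lipoproteins, differed by 0.04 ± 0.31. Ppara itself was at 66.7, 84.6 and 17.9 CPM in controls and at 49.2, 44.3 and 33.7 CPM in treated livers, with overlap.

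Of 28 tested PPAR-alpha lipid targets, 12 had all treated livers above all controls and 0 had all below, against 6.97% and 6.32% of all genes. Their median log2 difference was 0.51, against -0.00 for all genes tested, and stayed between 0.32 and 0.71 when each library was left out. DESeq2 called 4 of the 28, all higher. With the filter and no covariate, edgeR called 0 in the fit of all GD21 fetal libraries. Among the 12 were Fabp1, Acot1, Acot2, Cyp4a1, Cyp4a2, Cyp4a3, Ehhadh, Acaa1a, Vnn1, Cpt1b and Ucp2. The list was chosen with earlier results of these data known, so its direction is no independent evidence. Of 22 tested genes of mitochondrial beta-oxidation, 4 lay above and 0 below, with a median of 0.34 (0.16 to 0.46 with libraries left out). Of 17 peroxisomal genes the counts were 4 and 0, with a median of 0.20 (0.11 to 0.34). Of 5 ketogenic genes they were 1 and 0, with a median of 0.02 (-0.15 to 0.17).

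**Figure D1:**
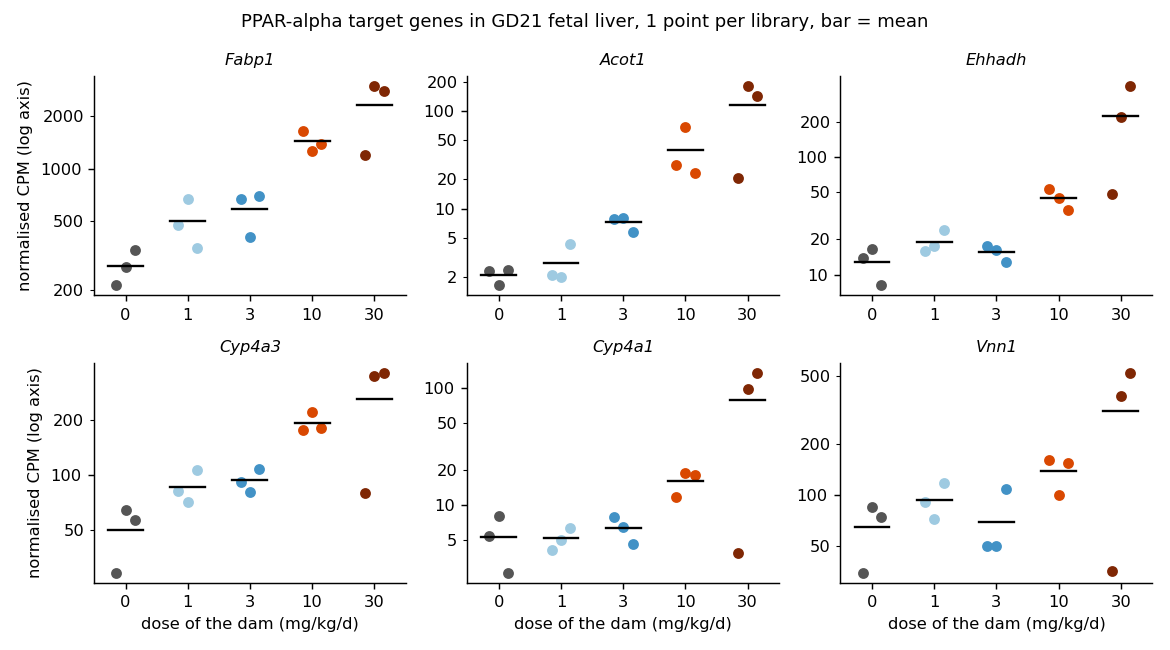
Normalised CPM (log axis) of 6 PPAR-alpha target genes in GD21 fetal liver against the dose given to the dam (mg/kg/d). Each point is 1 library and each bar the mean of 3. At 10 mg/kg/d all 3 points lie above all 3 controls for every gene shown, and at 30 mg/kg/d dam 2141 lies apart from the other 2.

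Among genes that make and desaturate fatty acids, 6 of 16 tested lay above all controls in every treated liver. Scd (chromosome 1, 264160129 to 264172730), the desaturase that makes monounsaturated fatty acids, was at 4.43, 7.43 and 7.15 CPM in controls and at 28.3, 28.3 and 23.7 CPM in treated livers. The log2 difference was 2.08 ± 0.37, 4.21-fold, with an adjusted p of 0.152 in edgeR and 1.82e-04 in DESeq2. Slc25a1, not one of those 16, is the carrier that exports citrate from mitochondria for lipid synthesis. It went from 50.5, 51.9 and 42.5 CPM to 86.4, 95.8 and 89.6 CPM. Its log2 difference was 0.91 ± 0.20, with an adjusted p of 0.554 in edgeR and 0.0133 in DESeq2. Acly, which turns that citrate into acetyl-coenzyme A, differed by 0.55 ± 0.26, and Acss2, which makes acetyl-coenzyme A from acetate, by 1.04 ± 0.38. Fads1, a desaturase of polyunsaturated fatty acids, differed by 1.49 ± 0.41, from 10.5, 7.14 and 20.8 CPM to 27.4, 52.5 and 27.8 CPM. For each of these genes the treated livers lay above all controls.

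Other members of the synthesis pathway gave different values. Acaca, the carboxylase that commits acetyl-coenzyme A to fatty acids, differed by 0.12 ± 0.23. Srebf1, a transcription factor of lipid synthesis, differed by -0.41 ± 0.28. Lpin1, which makes diacylglycerol, lay below in all treated livers, at 25.2, 27.1 and 29.3 CPM against 35.4, 75.8 and 32.2 CPM. Of 16 tested genes of fatty acid and triglyceride synthesis, 6 lay above all controls and 1 below, with a median log2 difference of 0.24. Of 19 genes of cholesterol synthesis and uptake, 3 lay above, among them Hmgcs1 and Lss, and 1 below, with a median of 0.30. With libraries left out the median ran from 0.09 to 0.30 for synthesis and from 0.11 to 0.55 for cholesterol. DESeq2 called Scd alone in these 2 lists, and edgeR, with the filter and no covariate, called 0 genes in them. With the haemoglobin share as a covariate edgeR called Scd, and without the filter 2 synthesis genes, both higher.

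**Figure D2:**
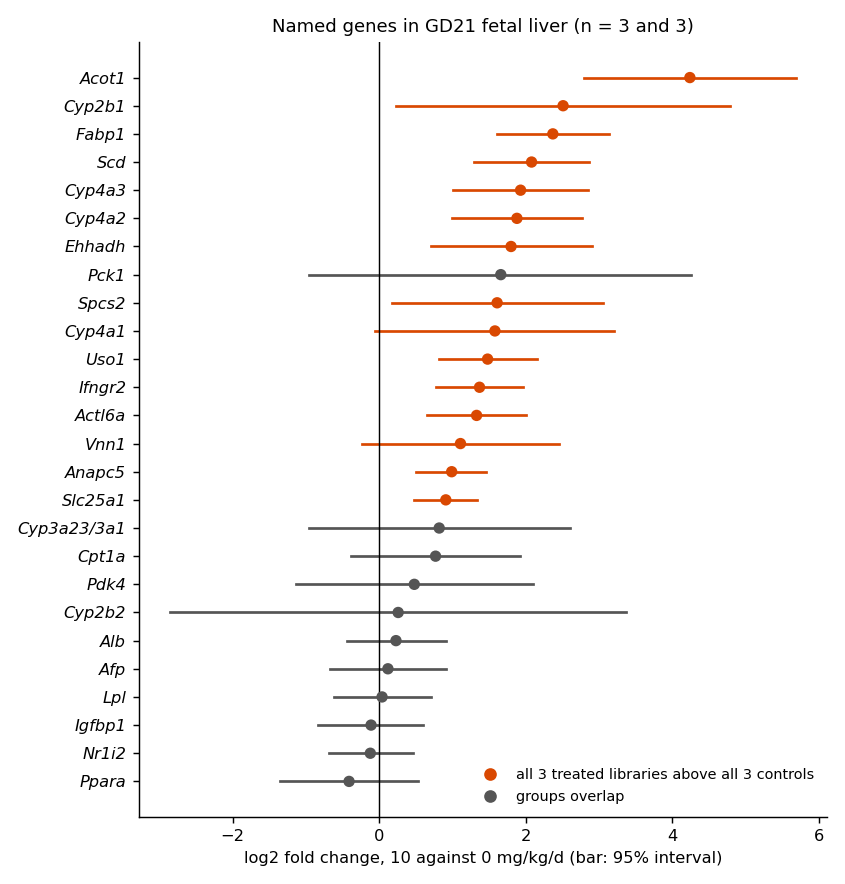
Log2 fold change at 10 against 0 mg/kg/d, with 95% intervals, for named genes that were tested in GD21 fetal liver (n = 3 and 3). Orange genes have all treated livers above all controls. Acot1, at 4.24, lies farthest to the right, and no gene shown passed the adjusted threshold in edgeR. The intervals of the 10 genes of smallest p exclude 0 because these genes were chosen by p.

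The 10 smallest p-values also held genes outside lipid metabolism. Uso1, a tethering protein of transport from the endoplasmic reticulum to the Golgi, was at 42.3, 53.1 and 40.5 CPM in controls and at 122.5, 157.3 and 100.4 CPM in treated livers. The log2 difference was 1.48 ± 0.31, with an adjusted p of 0.505 in edgeR and 0.0133 in DESeq2. Ifngr2, a chain of the interferon gamma receptor, read 7.38, 10.7 and 6.48 CPM against 22.5, 24.5 and 16.4 CPM, a difference of 1.37 ± 0.28 (adjusted p 0.465 in edgeR, 0.00201 in DESeq2). Anapc5, a subunit of the anaphase-promoting complex, differed by 0.99 ± 0.22, and Actl6a, a subunit of chromatin remodelling complexes, by 1.33 ± 0.32. DESeq2 gave Anapc5 an adjusted p of 0.0413 and Actl6a one of 0.108. Fam149a, named after its values were seen, was the gene called lower by DESeq2 (adjusted p 0.00391). It was at 154.6, 130.7 and 122.5 CPM in controls and at 80.1, 70.2 and 89.9 CPM in treated livers, a log2 difference of -0.76 ± 0.19.

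Uso1, Ifngr2, Anapc5 and Actl6a were all highest in dam 2139, the liver with the highest haemoglobin share of the 6. The part of depth in these differences was not tested. With the haemoglobin share as a covariate edgeR called 13 genes, among them Fabp1, Acot1, Scd, Cyp4a2 and Cyp4a3 but not these 4. Another 4 of the 13 were LOC gene models with fitted log2 differences of 26.97 to 29.94, too far from any measured ratio to be read as sizes. With this covariate the log2 differences were 1.46 for Uso1, 1.29 for Ifngr2, 1.09 for Anapc5 and 1.54 for Actl6a, with adjusted p-values in edgeR from 0.0689 to 0.124. Fabp1 then had a log2 difference of 2.60 with an adjusted p of 0.00182, and Acot1 one of 4.59 with 0.0267.

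Of the genes of xenobiotic metabolism, Cyp2b1, Cyp2b2 and Cyp3a23/3a1 had few counts in these fetuses. Cyp2b1, the classical CAR target, was at 1.48, 0.743 and 0.831 CPM in controls and at 9.62, 5.89 and 1.76 CPM in treated livers, a log2 difference of 2.51 ± 1.07 without overlap. Cyp2b2 overlapped, at 0, 2.53 and 2.49 CPM against 0.545, 0 and 5.85 CPM, and the counts of both were divided between near copies. Without dam 2138 the difference of Cyp2b1 was 1.92. Cyp3a23/3a1, the PXR target, differed by 0.82 ± 0.84, with an interval of -0.96 to 2.61. Nr1i2, which encodes PXR, differed by -0.12 ± 0.27. Nr1i3, which encodes CAR, did not pass the filter, and neither did Cyp1a1, the target of the dioxin receptor, or Cyp7a1, the rate-limiting enzyme of bile acid synthesis. Among 15 tested CAR and PXR targets, Cyp2b1, Aldh1a1 and Ephx1 lay above all controls and Gsta2 below, with a median of 0.23. Gsta2, a glutathione transferase, read 63.8, 99.2 and 78.4 CPM in controls and 35.8, 15.8 and 16.7 CPM in treated livers, a log2 difference of -1.81 ± 0.50.

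The lists of thyroid hormone, complement and coagulation, and bile acid genes had more members below the controls than above. Of 9 tested thyroid genes 0 lay above and 3 below: Dio1, which activates thyroid hormone, Ttr, which carries it, and Thrb, its receptor. Dio1 was at 30.2, 80 and 14.8 CPM in controls and at 11.3, 13.2 and 12.9 CPM in treated livers, and Ttr differed by -0.85 ± 0.36. The list's median was -0.41, but it ran from -0.53 to 0.04 when each library was left out, the last without control dam 2130. Of 31 complement and coagulation genes 1 lay above and 4 below (C3, C8b, F5 and F11), with a median of -0.14. Of 9 bile acid genes 0 lay above and 2 below, Slco1a1, an uptake carrier, and Nr1h4, the bile acid receptor. Slco1a1 went from 26.1, 40.3 and 28.1 CPM to 2.9, 12.2 and 9.07 CPM, a difference of -1.98 ± 0.82. None of these genes was called by edgeR or DESeq2.

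Glucose and hepatocyte identity genes mostly overlapped between groups. Pck1, the gate of gluconeogenesis, was below 4 CPM in all 6 livers, and Igfbp1, a secreted binder of growth factors that responds to fasting, differed by -0.11 ± 0.34. Of 14 tested gluconeogenic and glycogen genes, 1 lay above and 3 below. Of 15 mature hepatocyte genes 0 lay above and 2 below, and of 16 fetal hepatocyte genes 1 above and 0 below. Their medians were -0.12 and 0.10, and the first was 0.24 without control dam 2130. The sum of 36 erythroid markers was 51358 to 176414 CPM in controls and 119380 to 173638 CPM in treated livers (exact permutation test, two-sided, p = 0.9, where 0.1 is the smallest p that 3 against 3 allow). Of 34 tested erythroid markers 3 lay above all controls and 3 below, and 9 had a log2 difference above 0, with a median of -0.17. Hbb-bs, a beta globin and 1 of the 3 above, was at 36535, 34115 and 8654 CPM in controls and at 44599, 60086 and 43074 CPM in treated livers. Macrophage markers summed to 907.5 to 1141 CPM in controls and 888.4 to 1226 CPM in treated livers (exact permutation p = 1). Endothelial markers gave an exact permutation p of 0.9, and the granulocyte markers, lower on average in treated livers, one of 0.3. Krt7 of the cholangiocyte list and Des of the stellate list were at 0 in all 6.

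The remaining lists had few members that stood apart. Of 25 tested cell cycle genes 3 lay above all controls (Ccnb1, Bub1b and Foxm1) and 0 below, with a median log2 difference of 0.30 that ran from 0.15 to 0.41 with libraries left out. Of 23 genes of oxidative phosphorylation 3 lay above and 1 below, with a median of 0.07. Of 16 acute phase genes 1 lay above and 0 below, with a median of -0.25. Their summed level was 32732, 43221 and 32730 CPM in controls and 32697, 19943 and 31920 CPM in treated livers, lower in each treated liver, by little in dam 2138. Hp, the plasma protein haptoglobin, was at 89.8, 160.5 and 22.1 CPM in controls and at 39.9, 37 and 21.7 CPM in treated livers. Among 16 NRF2 targets, which answer oxidative stress, 1 lay above and 1 below, and among 11 p53 targets the counts were the same. In the lists of ER stress (18 tested) and glycolysis (14 tested) every gene overlapped between groups. The summed level of the 19 measured genes of the ER stress list was 3708 to 4112 CPM in controls and 3158 to 3660 CPM in treated livers, without overlap.

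For Fabp1 and Acot1, fetuses of the other dose groups of the same age place the 10 mg/kg/d mean between those of lower and higher doses. These comparisons share the controls with the one above, so their values are given side by side. Fabp1 was at 477.9, 669.9 and 352.3 CPM at 1 mg/kg/d, at 665.9, 406.1 and 693 CPM at 3, and at 1202, 2994 and 2801 CPM at 30. Acot1 was at 2.07 to 4.35 CPM at 1 mg/kg/d, at 5.8 to 8.1 CPM at 3, and at 20.8, 180.8 and 143.7 CPM at 30. Both therefore had higher means at every higher dose. Cyp4a3 did too, with means of 50.3, 86.5, 93.6, 192 and 260.6 CPM from the controls up to the highest dose. So did Cpt1a, and Cyp4a2, which is not independent of Cyp4a3. Not every target did. The mean of Ehhadh was 19.1 CPM at 1 mg/kg/d and 15.5 CPM at 3, and that of Vnn1 93 and 68.8 CPM. At 10 mg/kg/d the means of Ehhadh and Vnn1 were 44.9 and 137.9 CPM, and at 30 they were 222.8 and 314.3 CPM. Both thus also lay between lower and higher doses at 10 mg/kg/d. Against controls edgeR called 0 genes at 1 and at 3 mg/kg/d and 3 at 30 (0.0293% of genes tested): Fabp1, Acot1 and Ehhadh.

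The 30 mg/kg/d livers can also be set against the 10 mg/kg/d livers directly, without the controls. Here edgeR called 0 of 10244 genes in either direction (474 had an unadjusted p below 0.05). DESeq2 called 3 higher (0.0293%) and 7 lower (0.0683%) at 30. The 3 higher were Ehhadh, Igfbp1 and Mepce, and Uso1 and Ifngr2 were among the 7 lower. Mepce was near the floor at 10 mg/kg/d, at 0.182, 0 and 0 CPM, against 2.86, 7.82 and 8.34 CPM at 30. Its controls read 1.8, 0.149 and 4.15 CPM, so they overlapped the 30 mg/kg/d livers. The 7 also held Mt1m and Mt2A, whose levels kept nearly the same ratio in every GD21 fetal library, so the 2 are not independent readings. Ehhadh was at 48.8, 217.8 and 401.6 CPM at 30 mg/kg/d, a log2 difference of 2.31 ± 0.51 from 10 mg/kg/d (adjusted p 0.918 in edgeR, 0.0205 in DESeq2). Dam 2141 was the lowest of the 3 for each of Fabp1, Acot1, Ehhadh and Cyp4a1. Its Ehhadh, at 48.8 CPM, lay within the range at 10 mg/kg/d, and its Cyp4a1, at 3.92 CPM, within that of the controls. For Fabp1 (1202 CPM), Acot1 (20.8 CPM) and Cyp4a1, dam 2141 lay below every 10 mg/kg/d liver. Without it edgeR called 5 genes: Ehhadh (2.78 ± 0.32), Cyp4a1 (2.84 ± 0.37), Igfbp1 (2.06 ± 0.28) and Ppp1r3g (2.61 ± 0.37) higher, and Set (-1.45 ± 0.23) lower at 30 mg/kg/d. The haemoglobin share was 14.2% in dam 2141 and 5.12% and 5.1% in dams 2142 and 2143. At 10 mg/kg/d it was 11% to 17.4%, so leaving out dam 2141 sets livers low in haemoglobin against livers high in it. The part of haemoglobin in these differences was not tested.

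Uso1 and Ifngr2 had another course over dose. Uso1 was at 36.3, 43.9 and 48.5 CPM at 30 mg/kg/d, within reach of its controls, and 1.56 ± 0.31 log2 units below the 10 mg/kg/d livers on average. Ifngr2 was at 9.35, 9.07 and 8.53 CPM at 30 mg/kg/d, a log2 difference of -1.23 ± 0.28 from 10 mg/kg/d. Slc25a1, Anapc5 and Actl6a differed between these doses by -0.71 ± 0.20, -0.56 ± 0.22 and -0.99 ± 0.31. DESeq2 called Uso1 (adjusted p 0.0175) and Ifngr2 (0.0216) and not the other 3. All 5 were named for small p-values at 10 mg/kg/d, and the same libraries enter here, so these differences are not independent of that choice. Scd, in contrast, was at 28, 35.5 and 19.2 CPM at 30 mg/kg/d, a difference of 0.04 ± 0.35 from 10 mg/kg/d.

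**Figure D3:**
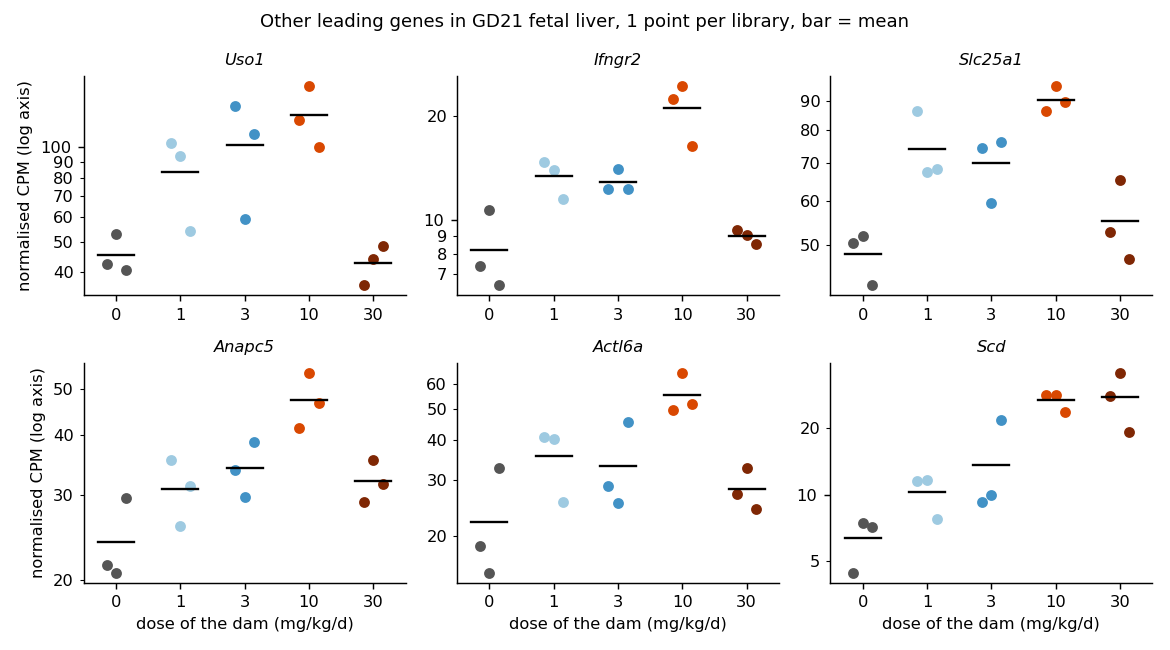
Normalised CPM (log axis) of the other 6 genes among the 10 smallest p-values, against the dose given to the dam (mg/kg/d) in GD21 fetal liver. Each point is 1 library and each bar the mean of 3. The means of Uso1, Ifngr2, Slc25a1, Anapc5 and Actl6a are highest at 10 mg/kg/d, and that of Scd is 26.8 CPM at 10 and 27.6 CPM at 30.

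The same dose was also given to 4 dams whose fetuses were taken at GD18, after dosing from GD14, with 6 controls over 2 study blocks. There edgeR called 0 of 12659 genes. At GD18 Fabp1 differed from control by 0.83 ± 0.27, Acot1 by 0.81 ± 0.37, Cyp4a3 by 1.01 ± 0.25 and Ehhadh by 0.77 ± 0.31 log2 units. Each was smaller than at GD21. The difference of responses, tested in 1 fit of 16 libraries, was called for 1 of 10786 genes by edgeR (0.00927%). That gene was Spcs2, a subunit of the signal peptidase that trims secreted proteins. It was at 6.88, 8.92 and 9.8 CPM in GD21 controls and at 22.3, 34.1 and 22 CPM in treated GD21 livers. Its response was 1.61 ± 0.67 at GD21 and -0.38 ± 0.29 at GD18, and in the joint fit the responses differed by 2.01 ± 0.30 (adjusted p 0.0486). The call was lost when any GD21 library but that of dam 2140 was left out, with adjusted p-values from 0.0638 to 0.278, and without the study block term (0.08).

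For the lipid genes the difference of responses did not pass edgeR's threshold. It was 3.47 ± 0.59 for Acot1 (adjusted p 0.116), 1.57 ± 0.37 for Fabp1 (0.265) and 1.71 ± 0.38 for Scd (0.241). Uso1 differed by 1.48 ± 0.27 (0.129). DESeq2 called 20 genes with the higher response at GD21 (0.185% of genes tested) and 5 with the lower (0.0464%), and these 4 genes were among the 20. Age and study block are the same split, so they cannot be told apart.

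In the livers of the dams themselves, 3 at each dose, edgeR called 5 of 9238 genes, all higher (0.0541%): Cyp2b1, Cyp2b2, Cyp3a23/3a1, Dhrs7l1 and AABR07035374.1, which lies inside the interval of Cyp3a23/3a1. In their fetuses, with the filter on low counts, neither edgeR nor DESeq2 called any of the 5. Without the filter edgeR called Cyp2b1 there (2.55, adjusted p 0.00225), a gene of few counts in these fetuses. Adjusted p-values of that setting are not comparable with those above. For Acot1 edgeR gave 6.00e-22 without the filter and 0.0765 with it, at log2 differences of 4.25 and 4.24. Cyp2b1 differed by 4.16 ± 0.36 in dams and 2.51 ± 1.07 in fetuses, and Cyp3a23/3a1 by 3.08 ± 0.43 in dams and 0.82 ± 0.84 in fetuses. Fabp1, in turn, differed by 0.24 ± 0.23 in dams and 2.37 ± 0.36 in fetuses. Scd differed by -0.73 ± 0.53 in dams and 2.08 ± 0.37 in fetuses, and Cyp4a3 by 0.28 ± 0.30 and 1.93 ± 0.43. Other PPAR-alpha targets were higher on average in treated dams: Acot1 by 1.86 ± 1.00, Vnn1 by 0.97 ± 0.56, Cyp4a1 by 0.76 ± 0.25 and Ehhadh by 0.71 ± 0.29. In fetuses these 4 differed by 4.24 ± 0.68, 1.11 ± 0.63, 1.58 ± 0.76 and 1.80 ± 0.52.

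The fetal minus the maternal response, tested in 1 fit, was called for 0 of 10213 genes by edgeR (557 at an unadjusted p under 0.05), with or without the dam as a pairing term. It was 2.11 ± 0.31 for Fabp1 (adjusted p 0.0723 in edgeR, 8.84e-10 in DESeq2), 2.78 ± 0.54 for Scd (0.218 and 7.33e-04) and 1.64 ± 0.29 for Uso1 (0.132 and 2.62e-04). It was -2.27 ± 0.64 for Cyp3a23/3a1 (0.776 and 0.0427) and -1.65 ± 0.63 for Cyp2b1 (0.863 in edgeR). DESeq2 called 10 genes with the higher response in the fetus (0.0979%) and 5 with the lower response in the fetus (0.049%). Among these 5 were Gsta2, Gstm7 and Slco1a1, whose fetal log2 differences were themselves negative, at -1.81, -0.84 and -1.98. Ehhadh differed by 1.07 ± 0.45, Acot1 by 2.33 ± 1.44 and Vnn1 by 0.12 ± 0.68, and none of them was called.

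**Figure D4:**
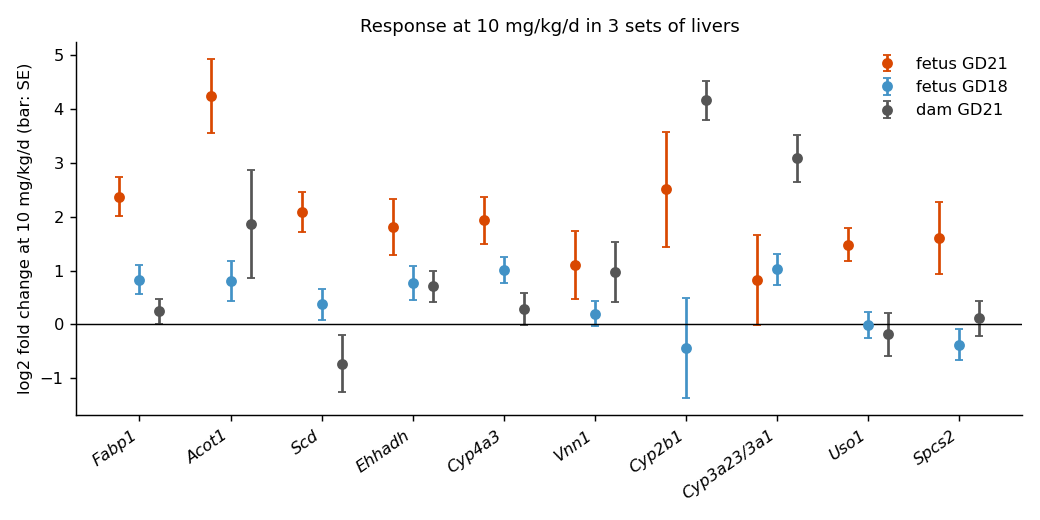
Log2 fold change at 10 against 0 mg/kg/d with its SE for 10 genes in GD21 fetal liver, GD18 fetal liver and GD21 maternal liver. Fabp1 is at 2.37, 0.83 and 0.24 in that order, and Cyp3a23/3a1 at 0.82, 1.02 and 3.08.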

How the data were processed

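Liver RNA was read by TempO-Seq with single reads of 50 bases. The authors deposited estimated counts for 20833 genes in 90 libraries, not normalised, of which 7.61% of values are not whole. Per the submitters' processing notes the tools were STAR 2.7.3a and Partek and the build rn6. Their roles and how reads were divided between near copies are not given in the sources used here. A second deposited table of log2 values was not used.

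Counts were rounded and tested with the two-sided quasi-likelihood F test of edgeR 4.0.16 under R 4.3.3. Low genes were removed with filterByExpr and libraries scaled by TMM. P-values were adjusted over every gene tested (Benjamini-Hochberg), with a threshold of 0.05. The fit held all 15 fetal GD21 libraries. SE is the size of the log2 fold change over the square root of F. CPM are rounded counts per 1000000 of TMM-scaled library size. DESeq2 1.42.0 and the other settings of the closing section were alternatives. The scripts were tested on simulated data.

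Genes were named by rule: the 10 smallest p-values (as no gene was called), 24 set genes where they passed the filter, and called differences of responses. Values of some genes are not reported here. Members and gene lists were chosen with earlier results of these data known. The plan had assumed whole counts. Chi-square per degree of freedom between control libraries was 27.5 for dams 2129 and 2130 and 116 to 133 with dam 2131, and 11.0 to 30.6 between treated libraries. Fetus and dam share a dam identifier in the labels. The residuals of the 6 pairs correlated at -0.015 to 0.133.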

Additional observations from a re-analysis of the deposited data

Results flagged for a closer look

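The response of Spcs2 at 10 mg/kg/d differed between ages: 1.61 ± 0.67 in GD21 fetuses and -0.38 ± 0.29 in GD18 fetuses, a difference of 2.01 ± 0.30 in the joint edgeR fit (adjusted p 0.0486), with 3 of 3 treated GD21 livers above all controls. Over all GD21 doses Spcs2 ranged from 2.75 to 58.7 CPM, both at 3 mg/kg/d, and the 58.7 CPM came from dam 2135, the shallowest fetal GD21 library at 3184902 counts. At 30 mg/kg/d it was at 7.54, 12.4 and 6.07 CPM.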

How the results depend on the processing

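The count of genes called at 10 against 0 mg/kg/d was 0 with TMM, with RLE factors, without dam 2135, with the Y-linked level as a covariate and with each of the 6 libraries left out. It was 2 with the 6 libraries alone (Fabp1 and Acot1), 11 with DESeq2, 13 with the haemoglobin share as a covariate and 54 with no filter (31 higher, 23 lower, 19315 tested). For 30 against 10 mg/kg/d it was 0 with RLE factors, 10 with DESeq2 and 0 to 5 with libraries left out. For GD21 minus GD18 it was 0 without the study block, 25 with DESeq2 and 0 to 3 with libraries left out. For fetus minus dam it was 15 with DESeq2, 0 with the dam as a replicate block and 0 to 2 with libraries left out. Under the haemoglobin covariate Igfbp1 turned to 0.02 and Afp to -0.01. With libraries left out the log2 difference ran from -0.07 to 0.22 for Lpl, -2.44 to 0.86 for Cyp2b2, -0.26 to 0.08 for Igfbp1, -0.83 to 0.01 for Ppara, -0.21 to 0.01 for Nr1i2, -0.22 to 0.33 for Afp and -0.09 to 0.51 for Alb. It ran from 3.61 to 4.49 for Acot1, 1.92 to 2.90 for Cyp2b1, 1.01 to 2.17 for Pck1, 0.05 to 1.54 for Pdk4, 0.36 to 1.38 for Cyp3a23/3a1 and 0.42 to 1.18 for Cpt1a. These 6 and the other 15 of the 28 named genes kept their direction in every setting run. The cause of these changes was not tested. Depth limits genes of a few CPM, such as Cyp2b1, Cyp2b2 and Pck1.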

Other observations

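Nfs1, a cysteine desulfurase that supplies sulfur to iron-sulfur clusters, was called higher at 10 mg/kg/d by DESeq2 and is described after its values were seen. Its counts were 0 in all 3 controls and 644, 0 and 377 in the treated fetuses of dams 2138, 2139 and 2140. It was 528, 0 and 0 at 30 mg/kg/d. Across all 45 dams with a fetal library, 18 fetuses had at least 50 counts and 27 had at most 5, with none between. Of those 18 fetuses, 9 had a dam with at least 50 counts and 9 a dam with at most 5. Of the 27, 4 had a dam with at least 50 counts, 22 a dam with at most 5 and 1 a dam between. The livers of dams 2138, 2139 and 2140 themselves had 405, 1 and 523 counts. Dam 2141, whose fetus had 528, had 1. Control fetuses at GD18 had 299, 321, 457, 358, 1 and 322 counts.

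Mt1m and Mt2A, metallothioneins that bind zinc and copper, were both called lower at 30 than at 10 mg/kg/d by DESeq2, each at -2.36 ± 0.56. They are not independent readings, since their levels kept nearly the same ratio in every GD21 fetal library. Mt2A was at 69, 90.7 and 26.8 CPM in controls, 89, 263.5 and 68.8 CPM at 10 mg/kg/d and 27.4, 23.1 and 30.9 CPM at 30 mg/kg/d. C8a, a complement component, was at 163.6, 231.2 and 110.4 CPM at 10 mg/kg/d and at 66.6, 57.6 and 54.2 CPM at 30 mg/kg/d. Both had their highest values at 10 mg/kg/d in dam 2139.

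Septin4, a filament-forming GTPase, was at 10.7, 11.1 and 9.14 CPM in controls and at 23.2, 24.5 and 22.2 CPM at 10 mg/kg/d, and at 11.2, 8.13 and 8.15 CPM at 30 mg/kg/d. Tmem126b, an assembly factor of respiratory complex I, was at 4.75, 13.8 and 11.3 CPM in controls, 27.8, 47.8 and 27.8 CPM at 10 mg/kg/d and 9.35, 15 and 11 CPM at 30 mg/kg/d.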
